A study of Mus musculus with 18 samples.

Results

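The integrated stress response and the genes that its transcription factor ATF4 switches on were followed in the liver of ovariectomized obese mice. The genes were Atf4, Atf5, Ddit3, Nupr1, Trib3, Chac1, Sesn2, Asns, Psat1 and Phgdh, taken by gene symbol from the deposited count tables, which gives 10 of the 40840 genes listed there. All 10 were found in both tables. RNA-seq counts were available for 18 libraries in 6 groups of 3, from female C57BL/6 mice, all of them ovariectomized and so without ovarian estrogen. Obesity came from a high-fat feed in the wild-type DIO mice (fat gave 45% of its calories, cholesterol made up 0.2%) and from the absence of leptin in the ob/ob mice, which ate a normal diet. An osmotic pump delivered the treatment over 6 weeks, a daily dose per kg of either 300 µg PaPE-1 or 5 µg estradiol (E2), or else the vehicle of DMSO, ethanol and saline. PaPE-1 is a pathway preferential estrogen, a weak ligand of the estrogen receptor made to favour its signalling outside the nucleus. The groups are thus DIO PaPE-1, DIO E2, DIO vehicle, ob/ob PaPE-1, ob/ob E2 and ob/ob vehicle, and the comparison asked how each ligand set the liver's RNA levels apart from vehicle in each model.

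Cells that lack amino acids, accumulate unfolded protein, face viral RNA or lack heme phosphorylate the translation factor eIF2α. General protein synthesis then falls while the mRNA of Atf4 is translated more, and ATF4 pairs with C/EBP proteins to switch on genes of amino acid supply, of redox balance and, through CHOP, of cell death. In liver the pathway is known for its part in protein restriction, fasting and fatty liver. RNA-seq sees the mRNA of these genes and neither the phosphorylation of eIF2α nor the ATF4 protein.

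ATF4 binds with its partners at C/EBP-ATF response elements, whose core was searched here as TGATGNAA on both strands of the promoter windows that RefSeq gives for mouse genes (GRCm38.p6, 250 bases before to 50 after a start site). The 10 genes had 12 such windows, and 4 of these, in 4 genes, held the core. Among all 32851 windows 3.97% held it, and among 78 windows of the wider pathway genes described below 17.9% did. These 4 sites are shown because they mark which of the genes carry the core near their start. Each line gives 30 bases on the strand of the gene with the core in capitals, which is read on the other strand in Trib3, Chac1 and Nupr1.
Trib3 (chr2:152344028-152344057, minus strand, bases 15 to 22 after the start): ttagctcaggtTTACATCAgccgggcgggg
Asns (chr6:7693214-7693243, minus strand, bases -23 to -16): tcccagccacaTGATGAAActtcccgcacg
Chac1 (chr2:119351038-119351067, plus strand, bases -193 to -186): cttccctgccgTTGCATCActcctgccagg
Nupr1 (chr7:126625562-126625591, minus strand, bases -110 to -103): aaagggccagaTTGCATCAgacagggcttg

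The cAMP response element TGACGTCA was in 0 of the 12 windows, against 1.79% of all windows. The ER stress response element was in 0 of the 12 as well, against 0.119% of all windows. A match is only a stretch of letters, and these windows say nothing of sites further away. The whole windows of Chac1 and Psat1 are shown because these were the genes that passed the test below. That of Chac1 holds the core (capitals), and neither of the 2 windows of Psat1 does, of which the upstream one is given.
Chac1 (chr2:119350992-119351291, plus strand): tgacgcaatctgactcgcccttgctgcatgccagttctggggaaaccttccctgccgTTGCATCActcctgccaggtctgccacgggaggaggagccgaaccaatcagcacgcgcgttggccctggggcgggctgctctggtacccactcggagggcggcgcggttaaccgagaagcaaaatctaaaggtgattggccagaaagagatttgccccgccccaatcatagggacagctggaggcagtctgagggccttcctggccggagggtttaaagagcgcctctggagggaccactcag
Psat1 (chr19:15925010-15925309, minus strand): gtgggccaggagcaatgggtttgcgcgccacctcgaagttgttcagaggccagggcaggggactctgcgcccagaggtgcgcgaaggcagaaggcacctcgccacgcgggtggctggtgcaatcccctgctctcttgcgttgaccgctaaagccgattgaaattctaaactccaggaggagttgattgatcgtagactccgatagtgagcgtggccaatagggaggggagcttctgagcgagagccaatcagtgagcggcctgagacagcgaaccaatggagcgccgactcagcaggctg

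Each DIO library held 16651616 to 21703791 counts and each ob/ob library 10470665 to 17021370. Levels are given as CPM, counts relative to the TMM-scaled library total, and as TPM, which also allows for gene length, where genes are set against each other. Tests are edgeR's quasi-likelihood tests over the 9 libraries of a model, with Benjamini-Hochberg adjusted p over all genes tested (13884 for DIO, 13433 for ob/ob), and a gene is said to have risen or fallen only at an adjusted p under 0.05. PaPE-1 and E2 were each compared with the same 3 vehicle libraries of a model. The model and the preparation of its libraries cannot be told apart, so levels are compared only within a model. The DIO library labelled E2 WE14 stood apart from the other DIO E2 libraries, WE3 and WE18. Cyp3a44, a female-biased cytochrome, was at 12.8 CPM in WE14, at 883 and 569 CPM in WE3 and WE18 and at 5.19 to 10.6 CPM in vehicle, and A1bg at 65.3 CPM in WE14, 1203 and 742 CPM in WE3 and WE18 and 40.4 to 77.5 CPM in vehicle. Cux2, a female-biased repressor, was at 54.7 CPM in WE14, above vehicle (33.4 to 46.9 CPM) and below WE3 and WE18 (119 and 86.0 CPM). DIO E2 results include WE14, and where stated they are also given without it. The wider pathway genes were tested only with WE14 included. The hepatocyte markers measured were present in every library. In ob/ob E2 liver all 6 neutrophil and marrow markers rose, with a summed level of 81.9, 317 and 182 CPM in L1, L12 and L19 against 4.86 to 5.76 CPM in vehicle, and 5 of 6 liver endothelial and 3 of 5 macrophage markers rose as well, while 4 of 5 proliferation markers fell (summed level 20.9 to 26.3 CPM after E2 and 34.1 to 69.1 CPM in vehicle). In bulk tissue a change in the number of cells of a type and a change in RNA per cell cannot be told apart.

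Per length of transcript the 10 genes ran from among the most abundant RNAs of the liver to the edge of detection. Atf5 was the most abundant in all 6 groups, with a mean of 385 TPM over the 9 DIO libraries (rank 367 of 22841 genes with a count) and 598 TPM over the 9 ob/ob libraries (rank 235 of 22081). Atf4 came next in every group, averaging 128 TPM (DIO) and 117 TPM (ob/ob). Atf5 and Atf4 together left only 3.81% to 9.14% of the summed TPM of the 10 genes to the other 8 in any library.

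**Figure D1:**
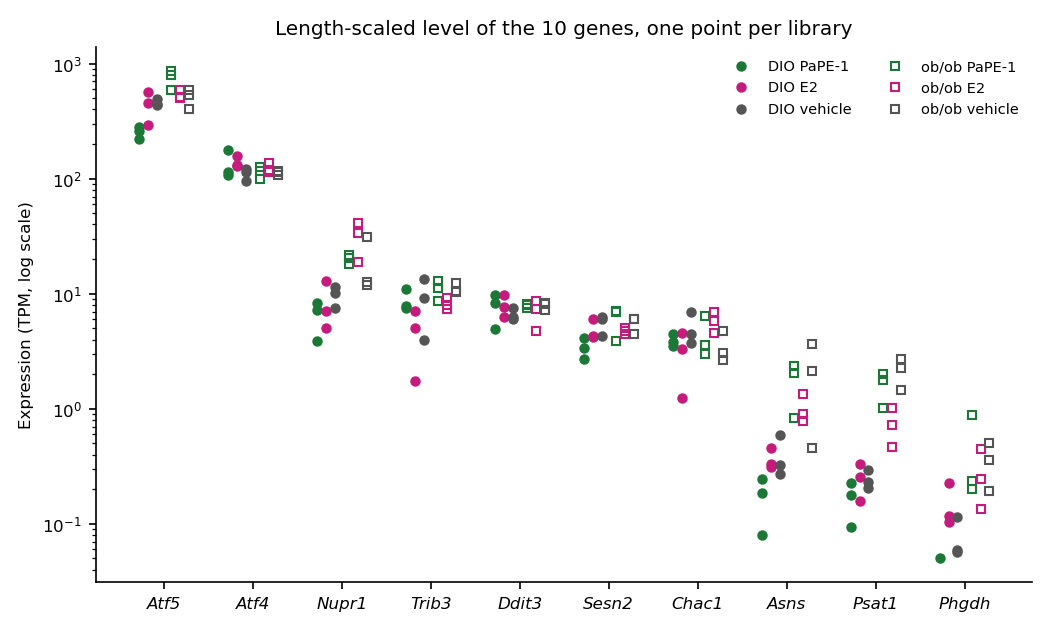
Level of each of the 10 genes in TPM on a log axis, one point per library, with filled circles for DIO and open squares for ob/ob liver (libraries with 0 counts are not drawn). Atf5 and Atf4 stood far above the other genes, and Asns, Psat1 and Phgdh were lowest, with means of 0.311, 0.219 and 0.0808 TPM in DIO liver.

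In ob/ob vehicle liver Nupr1 followed with 18.6 ± 11.1 TPM and Trib3 with 11.1 ± 1.03 TPM (SD, n = 3 each), whose libraries overlapped, so their order is not fixed. Ddit3 had 7.90 TPM there, below every Trib3 library and above every Sesn2 library (mean 5.51 TPM). In DIO vehicle liver the 5 genes from Nupr1 (9.70 TPM) through Trib3, Ddit3 and Sesn2 to Chac1 (5.03 TPM) overlapped neighbour by neighbour. The amino acid enzymes closed the order in all 6 groups. Phgdh (GRCm39 chr3:98220487-98247285), the first enzyme of serine synthesis, had 0 to 4 counts per DIO library and 2 to 12 per ob/ob library and was not tested. Its 0 counts in WP11 and WP24 allow levels up to 0.179 and 0.203 CPM (3 counts, counting error only). Asns (chr6:7675165-7693209), which makes asparagine, had 2 to 13 counts in DIO liver and was tested in ob/ob liver only. Thus 8 of the 10 genes were tested in DIO and 9 in ob/ob liver.

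**Figure D2:**
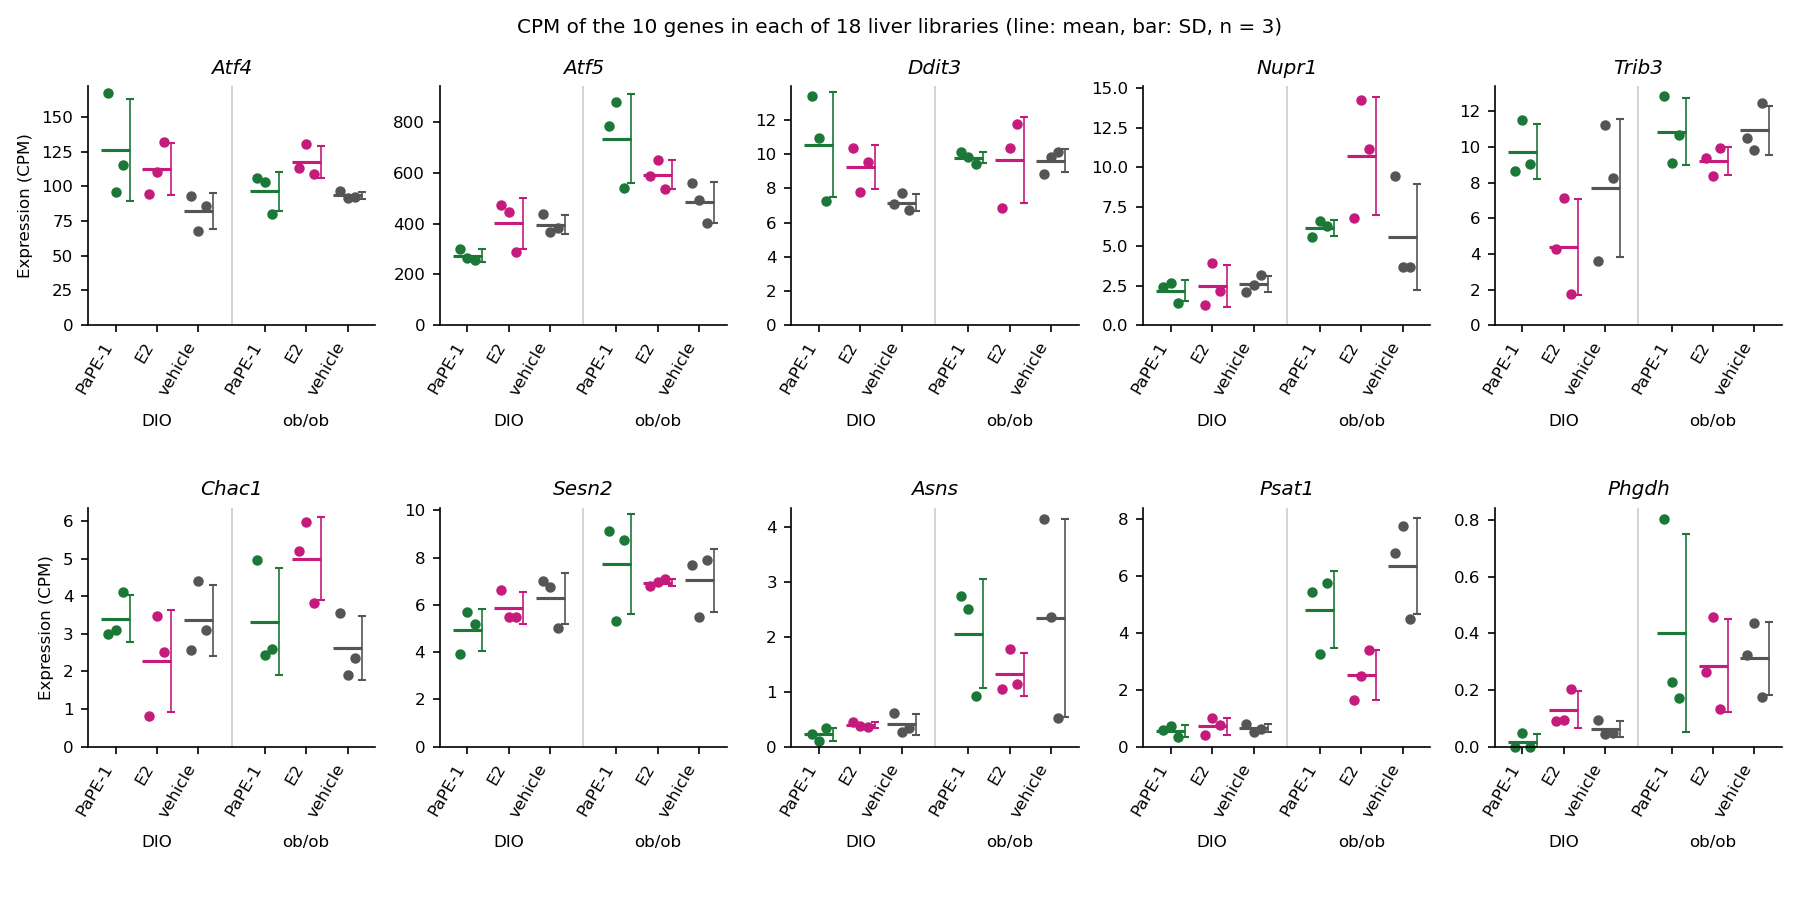
CPM of each gene in every library, in the order PaPE-1, E2 and vehicle within each model, with the mean (line) and SD (bar) of 3 libraries. Psat1 in ob/ob liver lay between 1.65 and 3.41 CPM in all E2 libraries and between 4.49 and 7.76 CPM in vehicle, whereas most other genes overlapped between the groups of a model.

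In DIO liver none of the 8 genes tested passed after PaPE-1. The share of all genes called was also 0% in either direction, and DESeq2's Wald test and limma voom called 0 of the 8 as well. At an unadjusted p under 0.05, 2 of the 8 were higher and 1 was lower, where 11.4% of all genes were higher and 9.67% lower. Their median log2 fold change was -0.10, against -0.03 for all genes tested. By CPM all PaPE-1 libraries lay above all vehicle libraries for 1 of the 8 and below them for 1, against 16.4% and 15.8% of all genes.

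Atf4 (GRCm39 chr15:80139385-80141746), which encodes the central factor of the response, had 167, 95.8 and 116 CPM in PaPE-1 libraries WP11, WP12 and WP24, against 93.0, 67.6 and 86.1 CPM in vehicle libraries WV7, WV8 and WV9. Every PaPE-1 library lay above every vehicle library in CPM, WP12 only narrowly. In TPM Atf4 overlapped between the groups, at 107 in WP12 and 121 in WV7. Its log2 fold change was 0.62 (SE 0.21, 95% interval 0.16 to 1.07), which did not pass (edgeR unadjusted p = 0.0117, adjusted p = 0.136). Without WP11, the highest library, it was 0.36.

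Ddit3 (chr10:127126662-127132160), which encodes the death-promoting factor CHOP, had 13.4, 10.98 and 7.29 CPM after PaPE-1 against 7.08, 7.72 and 6.73 CPM in vehicle. WP11 and WP12 stood above vehicle while WP24 lay within it. The log2 fold change of Ddit3 was 0.56 (SE 0.21, edgeR unadjusted p = 0.0219, adjusted p = 0.171), and 0.35 without WP11.

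Atf5 (chr7:44461680-44466082), a relative of Atf4 whose mRNA is likewise translated more when eIF2α is phosphorylated, went the other way. It had 302, 265 and 257 CPM in the PaPE-1 libraries against 439, 366 and 383 CPM in vehicle, and the groups did not overlap. This gave a log2 fold change of -0.53 (SE 0.18, 95% interval -0.93 to -0.13), which did not pass (edgeR unadjusted p = 0.0136, adjusted p = 0.142). In a fit to the 2 compared groups alone its adjusted p was 0.0482.

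None of the other genes tested had an unadjusted p under 0.05 for PaPE-1 against vehicle in DIO liver. Trib3 (chr2:152179345-152185980), a pseudokinase that restrains AKT and ATF4 signalling, averaged 9.74 ± 1.55 CPM after PaPE-1 and 7.69 ± 3.86 CPM in vehicle (SD, n = 3 each). Chac1 (chr2:119181723-119184807), which breaks down glutathione, averaged 3.40 ± 0.621 CPM after PaPE-1 and 3.36 ± 0.940 CPM in vehicle (SD, n = 3 each), with a 95% interval of the log2 fold change from -0.86 to 0.88. Sesn2 (chr4:132220115-132237767), a leucine sensor that restrains mTORC1, averaged 4.94 ± 0.901 CPM after PaPE-1 and 6.28 ± 1.08 CPM in vehicle (SD, n = 3 each), a log2 fold change of -0.34 (SE 0.21). Nupr1 (chr7:126222418-126224642), a small stress-induced nuclear protein, averaged 2.18 ± 0.669 CPM after PaPE-1 and 2.61 ± 0.523 CPM in vehicle, and Psat1 (chr19:15882487-15902423), the second enzyme of serine synthesis, 0.554 ± 0.199 CPM after PaPE-1 and 0.656 ± 0.147 CPM in vehicle (SD, n = 3 each). Beside these values, the summed level of the 7 hepatocyte markers found in the tables was 116500 to 143800 CPM in PaPE-1 libraries and 92670 to 100600 CPM in vehicle, that of the 5 proliferation markers was 4.25 to 7.53 CPM in PaPE-1 libraries and 10.7 to 15.9 CPM in vehicle, and the TMM factors were 0.890 to 0.949 in PaPE-1 libraries and 1.01 to 1.12 in vehicle. Alb gave the most to the hepatocyte sum. Of the 7 hepatocyte markers 5 had a log2 fold change above 0, with Cps1 (-0.147) and Apob (-0.178) below it, and none passed. Of the 5 proliferation markers 0 were above 0 and none passed, with Birc5 at -0.025. The part of these markers and factors in the differences was not tested.

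**Figure D3:**
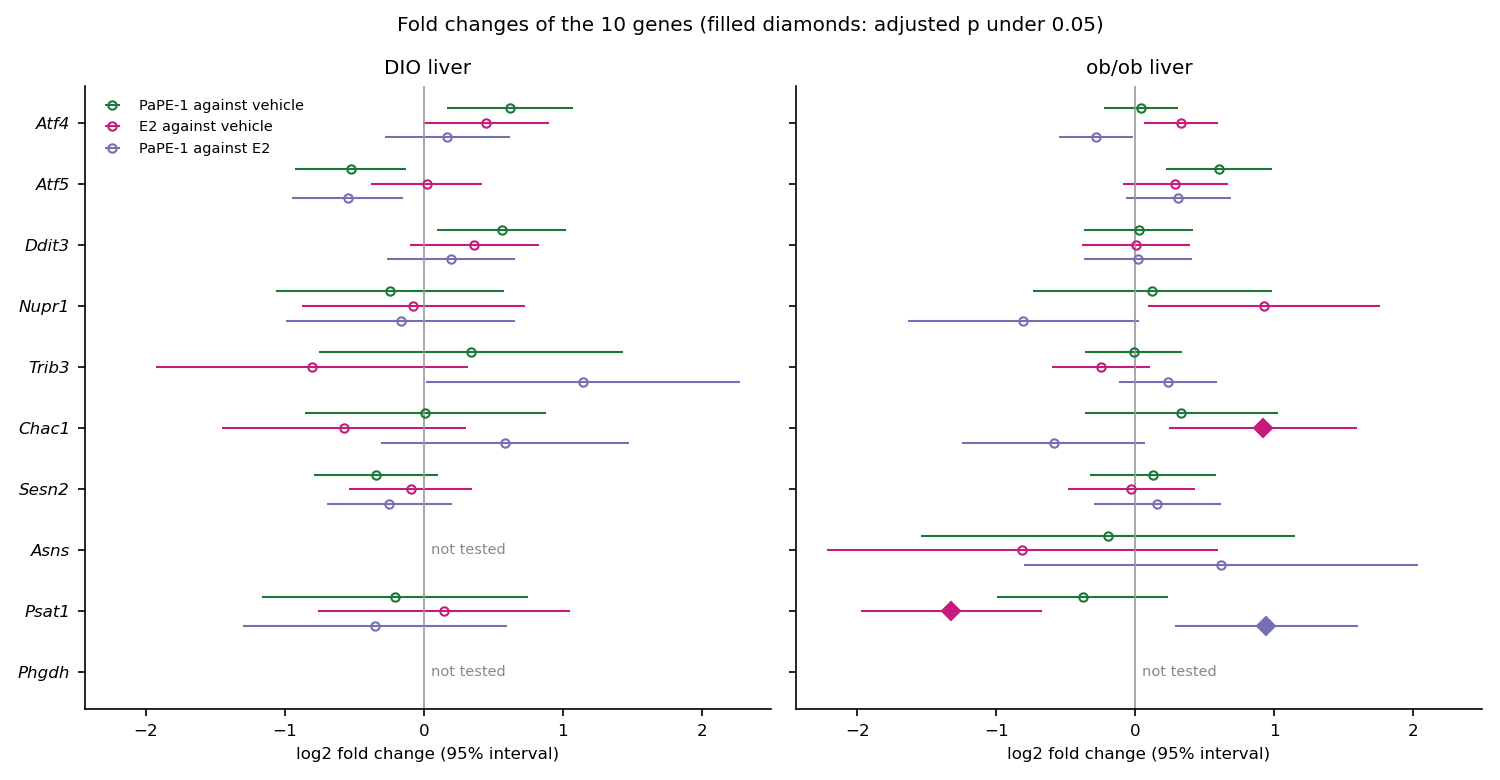
Log2 fold changes of the 10 genes with 95% intervals for 3 comparisons in DIO (left) and ob/ob liver (right). Filled diamonds mark adjusted p under 0.05, which were the fall of Psat1 and the rise of Chac1 after E2 and the higher Psat1 after PaPE-1 than after E2, all in ob/ob liver.

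After E2 in DIO liver none of the 8 genes tested passed in edgeR, DESeq2 or limma voom, where edgeR called 0% of all genes in either direction, and 0 of the 8 had an unadjusted p under 0.05, against 2.72% of all genes higher and 2.5% lower. Atf4 came closest, with 94.6, 110 and 132 CPM in E2 libraries WE3, WE14 and WE18, all above the vehicle libraries (67.6 to 93.0 CPM), and a log2 fold change of 0.45 (SE 0.21, edgeR unadjusted p = 0.0519, adjusted p = 0.956). Without WE14 its log2 fold change was 0.46. Ddit3 had 10.4, 7.82 and 9.55 CPM in the E2 libraries against 6.73 to 7.72 CPM in vehicle, with WE14 only narrowly above. In TPM Ddit3 overlapped between the groups, at 6.27 in WE14 and 7.45 in WV8. The log2 fold change of Ddit3 was 0.36 with WE14 and 0.47 without it. By CPM all E2 libraries lay above all vehicle libraries for 2 of the 8 and below them for 0, against 4.54% and 5.52% of all genes.

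Trib3 and Chac1 differed widely among the E2 libraries of DIO liver. Trib3 had 4.29, 7.15 and 1.75 CPM in WE3, WE14 and WE18 against 3.59, 11.3 and 8.24 CPM in vehicle, and its log2 fold change of -0.80 (SE 0.50) became -1.34 without WE14 (adjusted p = 0.367), -0.43 without WE18 and -0.42 without WV8. Chac1 had 0.813, 3.48 and 2.52 CPM after E2 against 2.58, 4.41 and 3.10 CPM in vehicle, and its log2 fold change of -0.57 (SE 0.40) became -1.03 without WE14 (adjusted p = 0.373), -0.17 without WE3 and -0.33 without WV8. WE14 was the highest of the E2 libraries for Trib3, Chac1, Psat1 and Nupr1. Without it the log2 fold change of Nupr1 was -0.60 in place of -0.08. That of Psat1 was -0.16 in place of 0.14, and that of Atf5 was -0.06 in place of 0.02, so neither had a fixed direction. Sesn2 had a log2 fold change of -0.10 (SE 0.20) with WE14 included.

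PaPE-1 and E2 were given at different doses, so a difference between them in DIO liver is one between the treatments as given. None of the 8 genes tested passed in edgeR, DESeq2 or limma voom, where edgeR called 0.0216% of all genes higher and 0.0144% lower, and at an unadjusted p under 0.05 there was 1 in each direction, against 8.42% of all genes higher and 8.61% lower. Atf5 was lower after PaPE-1, with 257 to 302 CPM, than after E2, with 287 to 474 CPM, and the groups overlapped (log2 fold change -0.55, SE 0.18, edgeR unadjusted p = 0.011, adjusted p = 0.197). Trib3 had 8.65 to 11.5 CPM after PaPE-1 against 1.75 to 7.15 CPM after E2. These groups did not overlap, and the log2 fold change was 1.14 (SE 0.50, edgeR unadjusted p = 0.0473, adjusted p = 0.287), or 1.68 without WE14. Of the 8 genes 1 lay wholly higher after PaPE-1 and 0 wholly lower, against 9.91% and 8.27% of all genes.

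In ob/ob liver none of the 9 genes tested passed after PaPE-1 in edgeR, DESeq2 or limma voom, where edgeR called 0% of all genes in either direction. At an unadjusted p under 0.05, 1 of the 9 was higher and 0 were lower, against 0.998% of all genes higher and 1.65% lower. The 1 was Atf5, which had 784, 880 and 542 CPM in PaPE-1 libraries L5, L6 and L16 against 561, 492 and 401 CPM in vehicle libraries L3, L8 and L13. L5 and L6 lay above all vehicle libraries and L16 lay below L3. The log2 fold change was 0.60 (SE 0.18, 95% interval 0.22 to 0.98, edgeR unadjusted p = 0.00447, adjusted p = 1). In the same livers the summed level of the 4 erythroid markers was 2296, 1647 and 319 CPM in L5, L6 and L16 and 231 to 432 CPM in vehicle, and its part in the difference was not tested.

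The other genes were close to vehicle after PaPE-1 in ob/ob liver. Atf4 averaged 96.5 ± 14.1 CPM after PaPE-1 and 93.5 ± 2.60 CPM in vehicle (SD, n = 3 each), with a 95% interval of the log2 fold change from -0.22 to 0.31. Ddit3 averaged 9.81 ± 0.336 CPM after PaPE-1 and 9.63 ± 0.668 CPM in vehicle, and Trib3 10.9 ± 1.90 CPM after PaPE-1 and 10.9 ± 1.36 CPM in vehicle (SD, n = 3 each). Asns was the least even gene, with 2.75, 2.50 and 0.922 CPM in L5, L6 and L16 against 4.15, 2.35 and 0.531 CPM in L3, L8 and L13, so that its vehicle libraries alone spanned all others. The intervals of the log2 fold change were wide for Asns (-1.54 to 1.15) and Nupr1 (-0.74 to 0.99). Sesn2, Chac1 and Psat1 had log2 fold changes of 0.13 (SE 0.21), 0.33 (SE 0.32) and -0.38 (SE 0.29), and none passed.

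E2 in ob/ob liver was the only comparison with vehicle in which genes of the response passed. Chac1 rose and Psat1 fell, 1 of the 9 genes tested in each direction, where 9.81% of all genes rose and 12.3% fell. At an unadjusted p under 0.05, 3 of the 9 were higher and 1 was lower, against 17.8% of all genes higher and 19.9% lower. The median log2 fold change of the 9 was 0.01, as was that of all genes. By CPM all E2 libraries lay above all vehicle libraries for 2 of the 9 and below them for 1, against 20.7% and 20.8% of all genes.

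Psat1 had 1.65, 2.49 and 3.41 CPM in E2 libraries L1, L12 and L19 against 6.80, 7.76 and 4.49 CPM in vehicle, from 25 to 51 counts against 76 to 105. All E2 libraries lay below all vehicle libraries. Expressed as a log2 fold change this was -1.32 (SE 0.30, 95% interval -1.97 to -0.67, edgeR adjusted p = 0.0106). The call was lost when L12 was left out (adjusted p = 0.0535), with a log2 fold change still at -1.32.

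Chac1 had 5.21, 5.97 and 3.81 CPM after E2 against 3.56, 1.92 and 2.36 CPM in vehicle, again without overlap, although L19 was just above L3. In TPM Chac1 overlapped between the groups, at 4.55 in L19 and 4.73 in L3. Its log2 fold change was 0.92 (SE 0.31, 95% interval 0.25 to 1.59, edgeR adjusted p = 0.0497). This call is marginal. It was lost with limma voom (adjusted p = 0.053), with a trend on gene length removed (adjusted p = 0.124) and without any 1 of L1, L12, L19, L8 or L13 (adjusted p = 0.0553 to 0.187).

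Atf4 itself had 113, 130 and 109 CPM after E2 against 96.5, 91.6 and 92.6 CPM in vehicle. The groups did not overlap in CPM but did in TPM, with 115 in L1 and 116 in L3. The log2 fold change of 0.33 (SE 0.12) did not pass (edgeR unadjusted p = 0.0193, adjusted p = 0.0713). Its value ran down to 0.14 over the alternative settings that left no library out. Nupr1 had 6.80, 14.2 and 11.2 CPM after E2 against 9.46, 3.66 and 3.66 CPM in vehicle, where L3 lay among the E2 libraries. Its log2 fold change was 0.93 (SE 0.38, edgeR unadjusted p = 0.0332, adjusted p = 0.101), and 1.55 without L3 (adjusted p = 0.00553). The log2 fold change of Nupr1 was 0.67 without L12, and it ran down to 0.55 over the alternative settings that left no library out. The neutrophil and marrow markers rose in the same livers. Among the E2 libraries L12 was highest, L19 next and L1 lowest both for their sum and for Nupr1. Among the vehicle libraries L3 was lowest for the sum (4.86 CPM) and highest for Nupr1 (9.46 CPM). Of the 7 hepatocyte markers 4 rose and 1, Cps1, fell (-0.57 on the log2 scale, SE 0.16), and their sum, to which Alb gave the most, was 142600 to 159100 CPM after E2 and 85330 to 114100 CPM in vehicle. The part of these cells in the values was not tested. Atf5 had a log2 fold change of 0.29 (SE 0.18), Ddit3 of 0.01 (SE 0.18), Trib3 of -0.25 (SE 0.16), Sesn2 of -0.03 (SE 0.21) and Asns of -0.81 (SE 0.63), none of which passed. The value of Asns rested on the vehicle libraries, at -0.0436 without L3 and -1.31 without L13.

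Between the ligands in ob/ob liver, Psat1 was higher after PaPE-1 than after E2, and no gene was called lower, so 1 of the 9 genes tested was called higher and 0 lower, where 10% of all genes were higher and 7.45% lower. Psat1 had 5.43, 3.26 and 5.76 CPM after PaPE-1 against 1.65, 2.49 and 3.41 CPM after E2, and L6 lay below the E2 library L19. The log2 fold change was 0.94 (SE 0.31, edgeR adjusted p = 0.0478). This call was lost with limma voom, with the length trend removed, in a fit to these 2 groups alone and without any 1 of L5, L16, L1 or L12 (adjusted p = 0.0529 to 0.172). Atf4 was at 80.3 to 106 CPM after PaPE-1 and at 109 to 130 CPM after E2, without overlap, and its log2 fold change of -0.29 (SE 0.12) did not pass (edgeR adjusted p = 0.123). Nupr1 likewise had no overlap, with 5.56 to 6.59 CPM after PaPE-1 and 6.80 to 14.2 CPM after E2. Its log2 fold change was -0.80 (SE 0.37, edgeR adjusted p = 0.159), and Nupr1 passed only in a fit to these 2 groups alone (adjusted p = 0.0432). In TPM Atf4 and Nupr1 each overlapped between the groups. Atf4 was at 115 in L1 and 125 in L5, and Nupr1 at 18.98 in L1 and 21.61 in L16. By CPM 0 of the 9 genes lay wholly higher after PaPE-1 and 2 wholly lower, against 19.1% and 18.2% of all genes.

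Whether a ligand acted differently in the 2 models was tested as an interaction over the 18 libraries. None of the 9 genes tested passed in edgeR for PaPE-1, where 0% of all 14171 genes were called, or for E2, where 0.0141% were. At an unadjusted p under 0.05 there were 2 of the 9 for each ligand, against 12.1% of all genes for PaPE-1 and 16.9% for E2. The largest difference for PaPE-1 was that of Atf5, with a log2 fold change of -0.53 for DIO and 0.60 for ob/ob mice and a difference of -1.12 (SE 0.27, edgeR unadjusted p = 0.000501, adjusted p = 0.197). It passed with DESeq2's Wald test (adjusted p = 0.00898) and with no filter on low counts (adjusted p = 0.0472). The share of all genes that passed in these alternative fits was not counted, so these passes cannot be set against it. For E2 the difference was 1.49 for Psat1 (SE 0.53, adjusted p = 0.171) and -1.48 for Chac1 (SE 0.56, adjusted p = 0.191). Without WE14 the difference of Chac1 was -1.94 (adjusted p = 0.0452) and that of Psat1 was 1.17. Without WE3 the difference of Chac1 was -1.09.

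The 10 genes did not rise and fall as one across libraries. Over the 9 libraries of DIO liver, Pearson correlations of log2 CPM between the 28 pairs of genes tested ran from -0.76 (Atf4 with Sesn2) to 0.78 (Psat1 with Nupr1), with a median of -0.06 and 17 pairs below 0. Over the 9 of ob/ob liver the 36 pairs ran from -0.72 (Atf4 with Psat1) to 0.80 (Atf4 with Chac1), with a median of 0.09 and 15 pairs below 0. These values describe libraries that share treatments and scaling. The mean standardized level of the 8 genes tested in both models was highest in WE14 (0.54) among DIO and in L5 (0.73) among ob/ob libraries. Outside the pathway, the 5 genes most like that mean were picked from 11320 candidates. The pick was by the lower of their correlations over the 9 libraries of each model, so the values are extremes by choice. The 5 were Zfp36 (0.88 in both), Snhg11 (0.84 in DIO and 0.75 in ob/ob liver), Uimc1 (0.75 and 0.83), Clk1 (0.75 and 0.78) and Srsf5 (0.75 and 0.73).

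The wider pathway was followed in 87 further genes in 8 groups by role, of which 81 (DIO) and 84 (ob/ob) were tested. After PaPE-1 in DIO liver 0 of the 81 passed, while 8 were higher and 6 lower by unadjusted p (under 0.05), counts no larger than the 11.4% of all genes higher and 9.67% lower would give. Of the sensing arm (eIF2α kinases, phosphatase subunits and the exchange factor eIF2B), the kinase gene Eif2ak4, which encodes GCN2, averaged 8.55 CPM after PaPE-1 and 12.1 CPM in vehicle (log2 fold change -0.49, SE 0.17), and Eif2b1 28.8 CPM after PaPE-1 and 22.1 CPM in vehicle (0.38, SE 0.14). Of the stress outputs, Gadd45a, a growth arrest gene, had 36.8, 31.1 and 21.9 CPM after PaPE-1 against 14.3, 11.9 and 18.7 CPM in vehicle, with a log2 fold change of 1.002 (SE 0.35, edgeR adjusted p = 0.16). Cdkn1a, another growth arrest gene, went the other way, with 1.67, 1.07 and 2.56 CPM after PaPE-1 against 2.25, 4.01 and 4.02 CPM in vehicle (log2 fold change -0.98, SE 0.36, edgeR adjusted p = 0.161). The smallest adjusted p was that of the mitochondrial chaperonin Hspe1 (0.126), at 106, 97.1 and 113 CPM after PaPE-1 against 77.2, 57.9 and 77.4 CPM in vehicle. Of the ER chaperone arms, which IRE1 and ATF6 control, 11 of 12 genes had a log2 fold change above 0 (47.1% of all genes did), with a median of 0.28, and none had an unadjusted p under 0.05. In the other groups the medians were between -0.17 for amino acid transporters and 0.16 for mitochondrial stress.

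After E2 in DIO liver 0 of the 81 genes passed, with 2 higher and 1 lower by unadjusted p (2.72% and 2.5% of all genes), and the group medians lay between -0.07 and 0.29. PaPE-1 against E2 in DIO liver gave 0 as well, with 5 higher and 7 lower at that level, close to the 8.42% of all genes higher and 8.61% lower. Tars, a tRNA synthetase for threonine, was at 74.4 to 86.4 CPM after PaPE-1 and at 117 to 133 CPM after E2 (log2 fold change -0.66, SE 0.16, edgeR adjusted p = 0.176). After PaPE-1 in ob/ob liver 0 of the 84 passed and 1 had an unadjusted p under 0.05 (0.998% of all genes higher and 1.65% lower), which was Cebpg, a dimer partner of ATF4 (72.5 to 86.5 CPM after PaPE-1 against 55.9 to 71.0 CPM in vehicle, log2 fold change 0.32, SE 0.15).

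After E2 in ob/ob liver 5 of the 84 genes rose and 12 fell, where 9.81% of all genes rose and 12.3% fell, so these counts were near the background. Gpt2, a mitochondrial alanine aminotransferase, had 436, 360 and 434 CPM in L1, L12 and L19 against 879, 1030 and 973 CPM in vehicle, with a log2 fold change of -1.23 (SE 0.15, edgeR adjusted p = 0.00107). Mthfd1l, of mitochondrial one-carbon metabolism, had 3.10, 5.51 and 5.61 CPM after E2 against 11.7, 13.2 and 9.51 CPM in vehicle (log2 fold change -1.27, SE 0.24). These were the 2 of 10 synthesis genes that passed, and 2 of 8 transporters fell.

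Slc38a2, a transporter of neutral amino acids, had 50.2, 49.3 and 56.7 CPM after E2 against 75.6, 70.5 and 85.9 CPM in vehicle (log2 fold change -0.57, SE 0.13). Slc7a11, the cystine transporter, fell too, at the low level of 0.132 to 0.201 CPM after E2 and 0.583 to 2.35 CPM in vehicle. Of 13 genes of tRNA charging, the tRNA exporter Xpot fell (log2 fold change -0.67, SE 0.14) and Tars rose (0.40, SE 0.13). None of 5 bZIP partners passed, and of 14 sensing genes only Ppp1r15b, a subunit that directs the phosphatase of eIF2α, fell (-0.45, SE 0.14).

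The stress outputs were split after E2 in ob/ob liver. The apoptosis gene Bbc3 rose, with 15.4, 14.8 and 10.96 CPM after E2 against 8.75, 3.58 and 3.66 CPM in vehicle (log2 fold change 1.35, SE 0.42, edgeR adjusted p = 0.0474), as did Ndrg1 (0.54, SE 0.17). The ER oxidase Ero1a (-0.99, SE 0.17) and the lipoprotein receptor Vldlr (-0.75, SE 0.22) fell. Of 12 ER chaperone genes Sdf2l1 rose (1.21, SE 0.25) and Dnajb9 fell (-0.73, SE 0.14). Of 9 genes of mitochondrial stress Hspe1 rose (0.37, SE 0.11), while Hspa9, Afg3l2 and Yme1l1, a chaperone and proteases of mitochondria, fell by 0.53, 0.40 and 0.53 on the log2 scale. Between the ligands in ob/ob liver, 10 of the 84 were higher and 5 lower after PaPE-1 than after E2, near the 10% of all genes higher and 7.45% lower. Among the higher were Gpt2 (1.33 on the log2 scale, SE 0.15) and Mthfd1l (1.24, SE 0.24), and among the lower were Got1, an aspartate aminotransferase (-0.40, SE 0.13), and Slc1a5, a glutamine transporter (-0.93, SE 0.23).

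**Figure D4:**
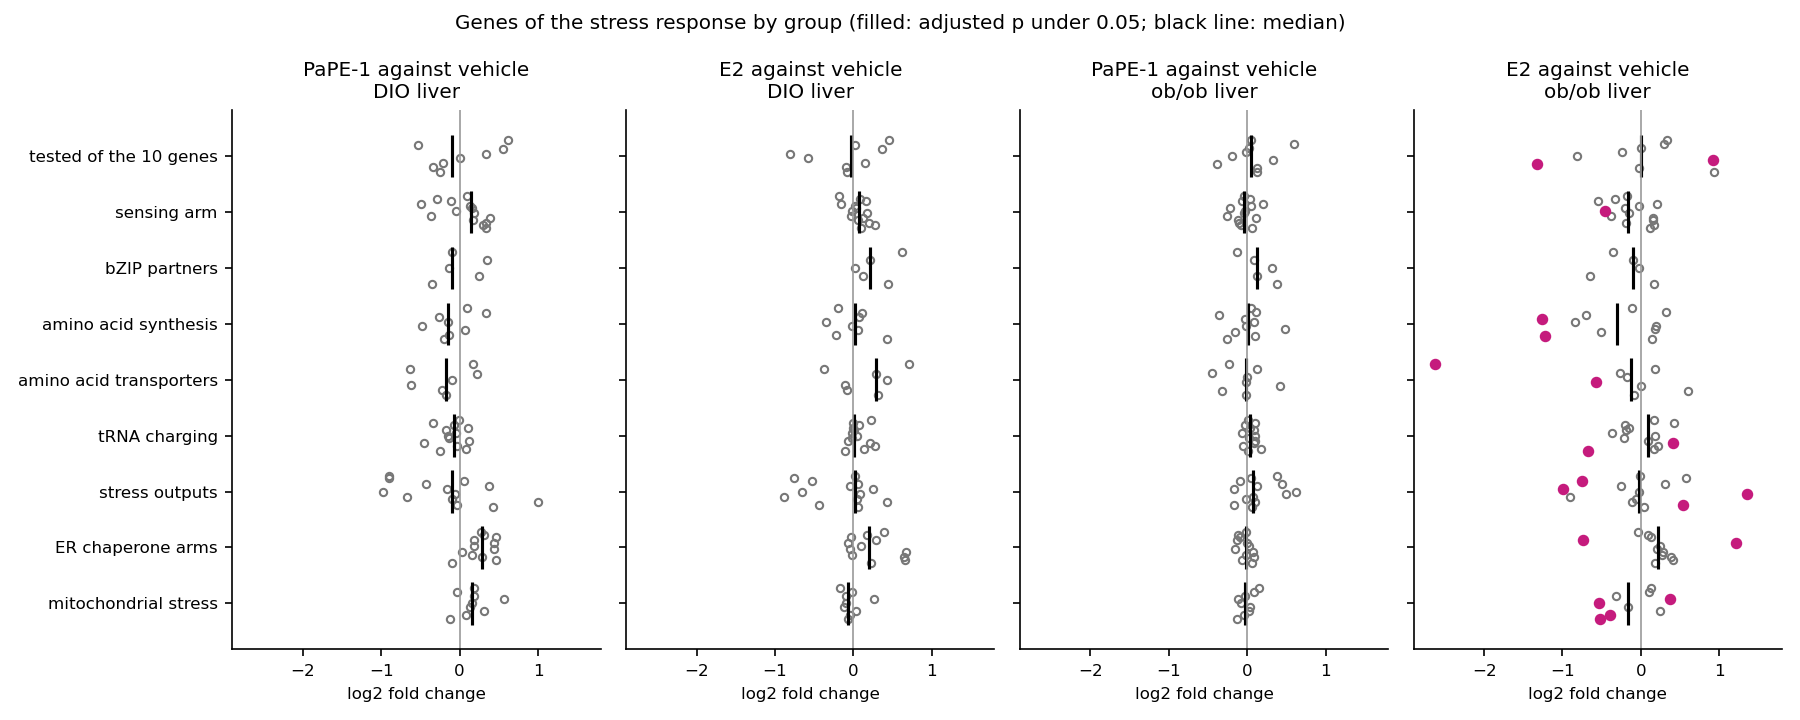
Log2 fold changes against vehicle of the tested genes by role, one point per gene, with the median as a black line and filled points at an adjusted p under 0.05. Filled points appear only for E2 in ob/ob liver, on both sides of 0 in several groups, with Slc7a11 the lowest at -2.63.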

How the data were processed

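The authors deposited raw counts per gene for each model, made by aligning reads with STAR (2.7.6a) and counting by strand with featureCounts (2.0.0) on RefSeq genes of GRCm39, and the deposited tables' gene lengths were used here for TPM. In 4 further deposited tables, DESeq2 fold changes, p-values and normalized counts were not used here. From these counts, edgeR (4.0.16) in R (4.3.3) gave all main results, with filterByExpr, TMM, and the robust quasi-likelihood test with one mean per group. CPM used the TMM-scaled totals, and log2 CPM a prior count of 2. Alternatives were DESeq2 (1.42.0) size factors and Wald test, limma (3.58.1) voom, no filter, a fit to the compared groups alone, a loess length trend (span 0.5) removed, and each library left out. Steps were tested on simulated data. The 10 genes, the gene lists and tests were chosen with earlier results of these data known. Named were all 10 genes, up to 4 genes per list and comparison by adjusted p, and the 5 genes of most like pattern. The labels mention 2 sequenced samples per group, but 3 libraries are given, and all were used. An exact permutation test of 3 against 3 cannot give a p below 0.1 and was not used.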

Additional observations from a re-analysis of the deposited data

Results flagged for a closer look

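The log2 fold change of Atf5 for PaPE-1 against vehicle was below 0 in DIO and above 0 in ob/ob liver. It passed in neither model in the main fit. Every PaPE-1 library lay below the vehicle mean in DIO liver, and every PaPE-1 library lay above it in ob/ob liver, where L16 was still below vehicle library L3. The difference between the models on the log2 scale, DIO minus ob/ob, was -1.115 (edgeR unadjusted p = 0.000501, adjusted p = 0.197), so it did not pass over all genes. Leaving out single libraries gave differences between -1.31 and -0.99.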

How the results depend on the processing

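Counts of the 10 genes called depended on the processing where calls lay near the threshold. The share of all genes called was counted for the main fits only. A change in the counts below can therefore not be told from a general shift in the number of calls. For E2 in ob/ob liver the number called higher was 1 and became 2 with DESeq2's Wald test and 0 with limma voom and with the length trend removed, and 0 to 2 with single libraries left out. The number called lower there was 1, and 0 to 1 with libraries left out. For PaPE-1 against E2 in ob/ob liver the number higher was 1 and became 0 with limma voom, with the length trend removed and in the fit to the 2 groups alone, and was 0 to 1 with libraries left out, and the number lower was 0 and became 1 (Nupr1) in the fit to the 2 groups alone. For PaPE-1 in DIO liver the number lower was 0 and became 1 (Atf5) in that fit. For the difference between models it was 0 and became 1 (Atf5) with DESeq2's Wald test and with no filter for PaPE-1, and was 0 to 1 (Chac1, without WE14) with libraries left out for E2.

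Log2 fold changes that changed sign were those of uncalled genes. With the length trend removed, PaPE-1 in DIO liver gave -0.17 for Chac1 and 0.0022 for Psat1, and E2 in ob/ob liver gave -0.0851 for Ddit3. With limma voom, E2 in DIO liver gave -0.0097 for Atf5, PaPE-1 in ob/ob liver 0.11 for Asns and E2 in ob/ob liver -0.0291 for Ddit3, which was -0.0211 with no filter. With single libraries left out, the ranges that crossed 0 were, for PaPE-1 in DIO liver, -0.15 to 0.25 for Chac1 and -0.46 to 0.029 for Psat1. For E2 in DIO liver they were -0.11 to 0.21 for Atf5, -0.16 to 0.44 for Psat1 and -0.60 to 0.23 for Nupr1. For PaPE-1 against E2 in DIO liver they were -0.0871 to 0.33 for Atf4, -0.0101 to 0.40 for Ddit3 and -0.48 to 0.35 for Nupr1. For PaPE-1 in ob/ob liver they were -0.0298 to 0.16 for Atf4, -0.0291 to 0.0698 for Ddit3, -0.15 to 0.11 for Trib3, -0.69 to 0.57 for Asns, -0.0684 to 0.62 for Chac1, -0.0087 to 0.34 for Sesn2 and -0.12 to 0.75 for Nupr1. For E2 in ob/ob liver they were -0.16 to 0.19 for Ddit3 and -0.17 to 0.0616 for Sesn2, and for PaPE-1 against E2 there -0.15 to 0.18 for Ddit3. Apart from what these settings change by construction, the cause was not tested. No paired analysis was run, because the labels give no pairing of mice between the groups compared. Asns, Psat1 and Phgdh had only 0 to 21 counts per library in DIO liver, so their values there are imprecise.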
